A study of Glycine max with 6 samples.

Results

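AMT1.3 and AMT1.5 are 2 ammonium transporter genes that lie close together on soybean chromosome 10, and they were described here across leaf libraries of the genotypes HN44 and SN14. They were picked out by their NCBI symbols, and because their levels had gone in opposite directions between the genotypes. They are 2 of the 41759 genes in the authors' table and 2 of the 11 genes there whose symbol begins with AMT. AMT1.3 stood higher in HN44 (109 to 147 FPKM against 44.3 to 75.9 in SN14), whereas AMT1.5 was near 0 in HN44 (0.16 to 0.67 FPKM) and stood at 24.0 to 61.4 FPKM in SN14. FPKM counts fragments per length of transcript and per mapped fragments of the library, so it is a level per length. Since that contrast chose the pair, its own differences are given as a description, with no test.

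The series holds leaf RNA of Glycine max (soybean) from 2 genotypes described as differing in water use efficiency, HN44 and SN14, with 3 libraries each, called here HN44-1 to HN44-3 and SN14-1 to SN14-3. All plants grew in an experimental field under natural conditions, and no treatment, age or sampling time is given. Which genotype is the more efficient is not stated, and nothing says that a genotype's libraries are of different plants. A p-value here then measures library spread alone, part of which may be technical. In whole leaves, fewer cells of a type and less RNA per cell cannot be told apart.

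Ammonium transporters of the AMT family are membrane proteins that carry ammonium into cells. The plant family falls into the AMT1 branch, whose studied members in Arabidopsis and rice are mostly high-affinity uptake proteins of the plasma membrane, and the AMT2 branch, to which AMT2, AMT3 and AMT4 genes belong. In leaves, ammonium arises from photorespiration and from nitrate reduction, and glutamine synthetase and glutamate synthase fix it into amino acids. Soybean moves fixed nitrogen from nodules to leaves as ureides, whose breakdown there also releases ammonium. What AMT1.3 and AMT1.5 each do in soybean leaves was not measured.

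Leaf markers were high in each library. The 10 genes for Rubisco small subunits, chlorophyll-binding proteins and Rubisco activase summed to 54780 to 70800 FPKM in HN44 and to 73100 to 88450 in SN14. The sums did not overlap. None of the 10 genes passed the limma test between genotypes, which 3.78% of all tested genes passed. RBCS1 and LHCB1-7, lower in HN44, and RCABETA, higher there, had an unadjusted limma p under 0.05, as did 27.3% of all tested genes. Without HN44-3 the limma adjusted p of the 10 genes ranged from 0.3335 (LHCB1-7) to 0.9786 (RCAALPHA). Of 3 nodulin genes, 1, NOD33, reached 1 FPKM, and the nodulin sum ranged from 2.85 to 8.31 FPKM in HN44 and from 2.87 to 6.65 in SN14. The glycinin gene GY3, a seed marker, stayed at or below 0.07 FPKM. HN44-3 took values between those of HN44-1 and HN44-2 in 1966 of 1980 genes (99.3%) that differed over 2-fold between them and reached a mean of 5 FPKM. HN44-3 lay between the other HN44 libraries for AMT1.3 and for AMT1.5 too. HN44-3 may therefore not be a separate sample, which was not tested. HN44 means below are of HN44-1 and HN44-2 (n = 2), and SN14 means of 3 libraries (n = 3). The SE and adjusted p of the fit to 6 libraries count HN44-3 as a replicate and may be too small. Values without HN44-3 are given for the pair, LOC100798815 and each group of genes whose test results are described.

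In the authors' table AMT1.3 (gene 100797209) spans chromosome 10 from 40202640 to 40204657, and AMT1.5 (gene 100801277) spans 40240727 to 40242725, both on the plus strand. Which genome build these positions refer to was not stated in the sources used here. The starts lie 38.1 kb apart, the spans are 2018 and 1999 bases long, and they share no base. Another family member, AMT1.4 (gene 100797759), is listed from 40202640 to 40242737, with the start of AMT1.3 and with an end just past that of AMT1.5. Its span of 40098 bases holds both genes of the pair. LOC100798815, to which no name or role is given in the tables used here, also starts at 40202640 and runs to 40323315, over the other 3. Of all genes in the table, 3.01% share a start with another gene of the same strand and 4.01% lie wholly inside one. In the RefSeq table of assembly Glycine_max_v4.0 these 4 genes do not overlap. There AMT1.4 is number 2 in gene order after AMT1.3, AMT1.5 is number 3 after it and LOC100798815 number 9. Reads of the pair may thus have been divided with AMT1.4 and LOC100798815, and how they were assigned was not tested.

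**Figure D1:**
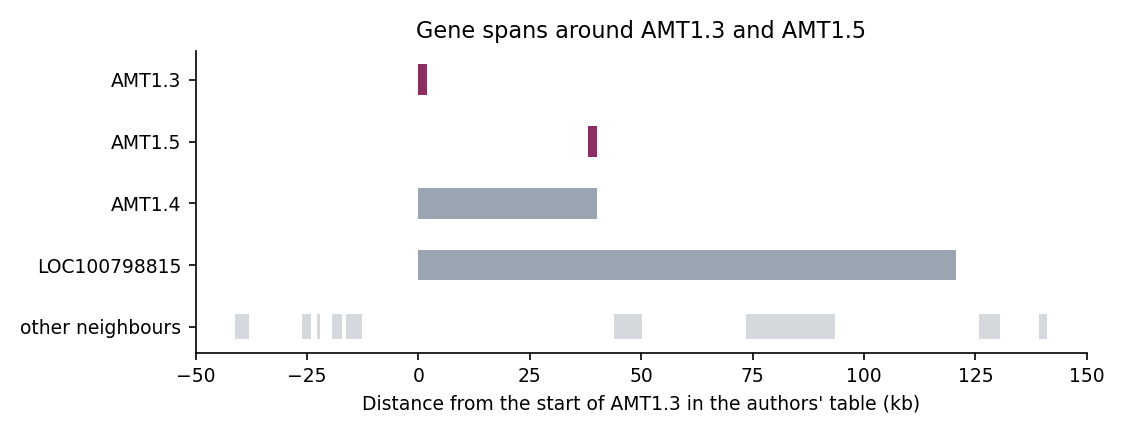
Spans of AMT1.3, AMT1.5, AMT1.4, LOC100798815 and the other neighbouring genes, as the authors' table lists them, in kb from the start of AMT1.3. AMT1.3 and AMT1.5 (dark bars) lie 38.1 kb apart, and the spans of AMT1.4 and LOC100798815 cover both.

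AMT1.3 stood at 147 FPKM in HN44-1, at 109 in HN44-2 and at 139.5 in HN44-3, and at 44.3, 75.9 and 46.1 FPKM in SN14-1, SN14-2 and SN14-3. Each HN44 library lay above each SN14 library, and SN14-2 came closest. The HN44 mean was 128 ± 27.1 FPKM (SD, n = 2), that of SN14 was 55.5 ± 17.7 (SD, n = 3), a ratio of 2.31. On the log2(FPKM + 1) scale HN44 minus SN14 was 1.27 ± 0.25 (SE of the limma fit to 6 libraries), and 1.22 ± 0.32 without HN44-3. Among the genes of the table, AMT1.3 ranked 731 by its mean over all 3 HN44 libraries and 1904 by its mean in SN14.

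AMT1.5 stood at 0.67 FPKM in HN44-1, 0.16 in HN44-2 and 0.22 in HN44-3, and at 32.55, 61.4 and 24.0 FPKM in SN14-1, SN14-2 and SN14-3. The lowest SN14 library was thus far above the highest HN44 library. The HN44 mean was 0.415 ± 0.361 FPKM (SD, n = 2), that of SN14 was 39.3 ± 19.6 (SD, n = 3), a ratio of 94.7 of SN14 over HN44. This ratio rests on HN44 values under 1 FPKM, whose counting error is unknown. HN44 minus SN14 was -4.81 ± 0.35 on the log2(FPKM + 1) scale (SE), and -4.75 ± 0.43 without HN44-3. With the genes ordered by this difference, AMT1.5 was number 7 of 27140 tested genes from the most negative, and AMT1.3 was number 779 from the most positive. That order uses the difference that chose the pair, and AMT1.5 was tested only because its 3 SN14 libraries reached 1 FPKM. By its mean over all 3 libraries of a genotype, AMT1.5 ranked 31105 of 41759 genes in HN44 and 2767 in SN14.

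The 3 HN44 libraries lay above the 3 SN14 libraries in 23.3% of tested genes and below them in 10.5%. In limma 2.33% of tested genes were called higher in HN44 at an adjusted p of 0.05 and 1.44% lower (633 and 392 of 27140). Without HN44-3 these shares were 0.387% and 0.166%, or 0.553% in all. After median-of-ratios scaling of the libraries the calls were 458 higher and 504 lower, and the median log2 difference of all tested genes went from 0.17 to 0.02. The differences of the pair under that scaling were 1.08 for AMT1.3 and -4.92 for AMT1.5.

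**Figure D2:**
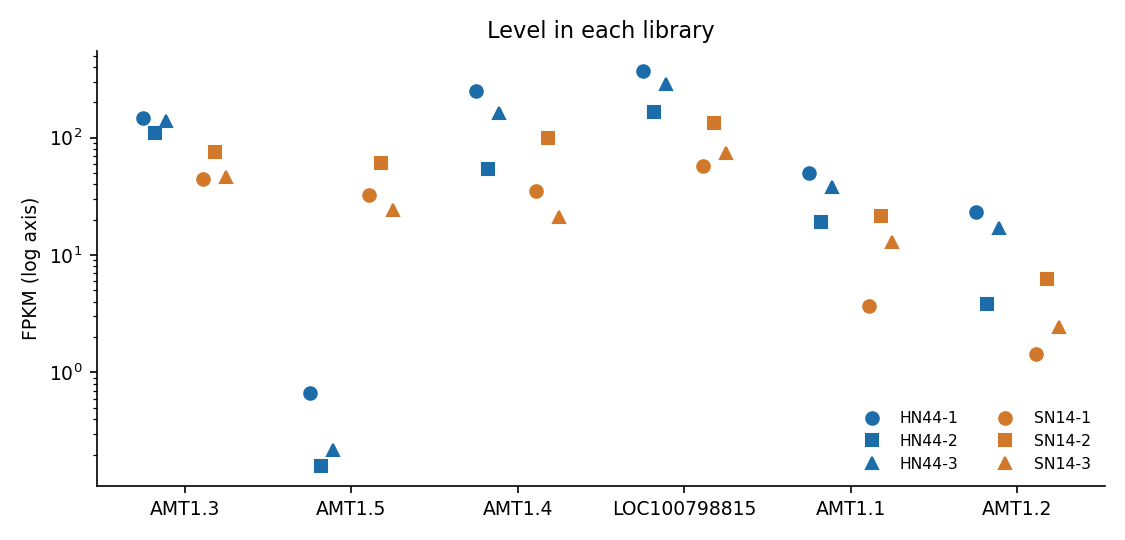
FPKM on a log axis for 6 genes, with 1 point per library (HN44 blue, SN14 orange; circle, square and triangle for libraries 1, 2 and 3). AMT1.3 is higher in each HN44 library, AMT1.5 is under 1 FPKM in HN44 and at 24.0 FPKM or more in SN14, and the groups overlap for AMT1.4, AMT1.1 and AMT1.2.

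Within a library the pair had a different balance in each genotype. AMT1.3 was 1.36, 1.24 and 1.92 times AMT1.5 in SN14-1, SN14-2 and SN14-3, so that both were of one order of magnitude there. In HN44 the ratio was 220.1 in HN44-1, 682 in HN44-2 and 634 in HN44-3. The summed FPKM of the pair was 148, 109 and 139.8 in the HN44 libraries and 76.9, 137 and 70.1 in those of SN14. These sums overlapped, with SN14-2 between HN44-2 and HN44-3.

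AMT1.4, whose listed span covers the pair, stood at 248, 53.9 and 163 FPKM in the HN44 libraries, in the order of their numbers, and at 35.1, 99.0 and 21.0 in those of SN14. Its groups overlapped, since SN14-2 exceeded HN44-2, and it did not pass (log2 difference 1.61 ± 0.71 SE, limma adjusted p = 0.196). AMT1.4 exceeded AMT1.3 in HN44-1, HN44-3 and SN14-2, at 1.68, 1.17 and 1.304 times its level. In HN44-2, SN14-1 and SN14-3 it was at 0.494, 0.791 and 0.455 times AMT1.3. LOC100798815 stood at 373, 166 and 289 FPKM in HN44 and at 57.1, 132 and 74.3 in SN14. Its lowest HN44 library was above its highest SN14 library, as in 23.3% of all tested genes. LOC100798815 did not pass (1.65 ± 0.40 SE, limma adjusted p = 0.0708). Its limma adjusted p was 0.282 without HN44-3 and 0.0495 without SN14-2, and ranged from 0.0495 to 0.311 over the alternatives run.

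Summing AMT1.4 with AMT1.5, the pair of models that end within a few bases of each other, gave 249, 54.1 and 163 FPKM in HN44 and 67.6, 160.4 and 45.0 in SN14. The groups of that sum overlapped. In HN44 the sum was nearly AMT1.4 alone (248, 53.9 and 163 FPKM), whose groups already overlapped. The overlap of the sum therefore cannot show how reads were divided between the 2 models, which was not tested. The sum of AMT1.3, AMT1.4 and AMT1.5 was 396, 163 and 303 FPKM in HN44 and 112, 236 and 91.2 in SN14, again with overlap. With LOC100798815 added it ranged from 329 to 769 FPKM in HN44 and from 165 to 369 in SN14.

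As a share of the 3-gene sum, AMT1.5 made up 29.1%, 26.0% and 26.3% in SN14-1, SN14-2 and SN14-3. In HN44-1, HN44-2 and HN44-3 it made up 0.169%, 0.098% and 0.0727%. Its share in SN14 thus varied little (27.1 ± 1.69%, SD, n = 3), although the sum itself differed over 2-fold between SN14-2 and the other SN14 libraries. The share of AMT1.3 was 37.2%, 66.9% and 46.1% in HN44 and 39.6%, 32.1% and 50.6% in SN14, which overlap. That of AMT1.4 was 62.6%, 33.0% and 53.8% in HN44 and 31.3%, 41.9% and 23.1% in SN14, which overlap too. The share of AMT1.5 was the one of the 3 whose groups did not overlap. This follows from AMT1.5 being near 0 in HN44, part of the contrast that chose the pair.

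**Figure D3:**
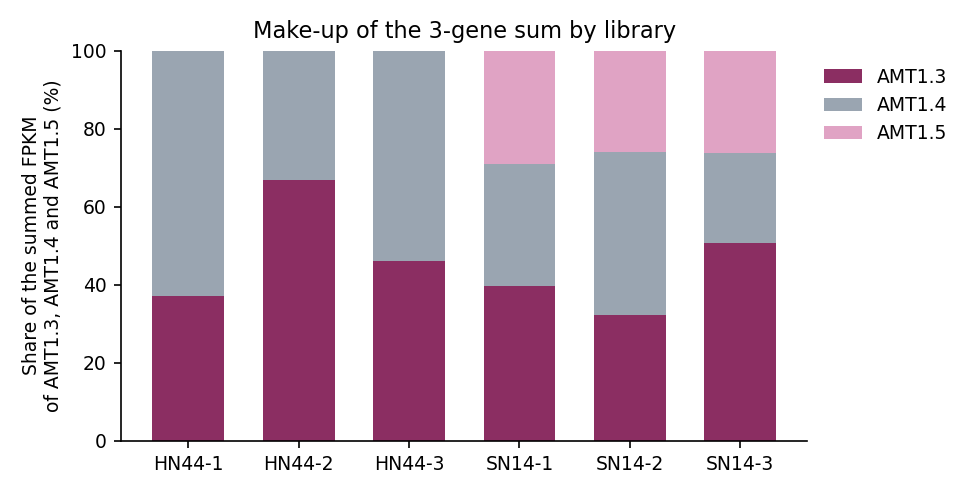
Share of AMT1.3, AMT1.4 and AMT1.5 in their summed FPKM, in percent, with 1 bar per library. AMT1.5 takes 26.0% to 29.1% of the sum in SN14 and under 1% in HN44, while the other shares overlap between genotypes. The contrast of AMT1.5 follows from how the pair was chosen.

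The other AMT genes set the pair in its family. Of 15 AMT symbols in the RefSeq table, 11 were analysed here, and 7 of them passed the filter on low values, the pair included. Of the other 9 genes, 5 were tested; none passed an adjusted p of 0.05 in limma, where 3.78% of all tested genes did, and 2, AMT1.1 and AMT1.2, had an unadjusted p under 0.05, as did 27.3% of all tested genes. The 5 had a median log2 difference of 1.59, beside 0.17 over all tested genes, and 3 of them were above 0, as were 64% of all tested genes. After median-of-ratios scaling the median of the 5 was 1.41 beside 0.02. Without HN44-3 none of the 5 passed, with limma adjusted p from 0.394 to 0.939, where 0.553% of all tested genes did.

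AMT1.1, on chromosome 20, stood at 50.5, 19.2 and 37.7 FPKM in HN44 and at 3.70, 21.4 and 13.0 in SN14. SN14-2 exceeded HN44-2, so the groups overlapped (log2 difference 1.59 ± 0.61 SE, limma adjusted p = 0.155). AMT1.2, on chromosome 10 but outside the neighbours of the pair, stood at 23.1, 3.83 and 17.0 FPKM in HN44 and at 1.44, 6.20 and 2.46 in SN14. Here too SN14-2 exceeded HN44-2 (1.70 ± 0.66 SE, limma adjusted p = 0.159). AMT1.1, AMT1.2 and AMT1.4 were thus on the side of AMT1.3, with a mean higher in HN44, without passing the test. AMT1.5, chosen for its direction, was the 1 gene of the AMT1 branch here with a lower mean in HN44.

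The genes of the AMT2 branch were low in these leaves. AMT4.5 stood between 2.43 and 3.40 FPKM in HN44 and between 2.51 and 4.28 in SN14 (log2 difference -0.14 ± 0.21 SE, limma adjusted p = 0.678). AMT2.2 stood between 0.57 and 1.33 FPKM in HN44 and between 0.70 and 1.77 in SN14 (-0.13 ± 0.24 SE, limma adjusted p = 0.746). AMT2.1, AMT2.3, AMT4.1 and AMT4.2 were not tested and stayed at or below 0.28 FPKM; AMT4.1 was listed at 0 in 5 of 6 libraries.

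By mean over its 3 libraries, HN44 had AMT1.4 first in the family, then AMT1.3, AMT1.1, AMT1.2, AMT4.5, AMT2.2 and AMT1.5. The ranges of AMT1.4 and AMT1.3 overlapped there, as did those of AMT1.1 and AMT1.2, and those of AMT2.2 and AMT1.5. AMT1.3 and AMT1.1 did not overlap. In SN14 the order was AMT1.3, AMT1.4, AMT1.5, AMT1.1, AMT4.5, AMT1.2 and AMT2.2. The first 3 overlapped in turn, and AMT1.5 lay above AMT1.1 without overlap. AMT1.5 was therefore number 7 of 11 in HN44, with a range that overlapped that of AMT2.1 below it, and number 3 of 11 in SN14. Of the summed FPKM of the 11 genes, which was 474, 190.6 and 362 in HN44 and 122, 268 and 112 in SN14, AMT1.5 held 26.7%, 22.9% and 21.5% in SN14-1, SN14-2 and SN14-3. AMT1.3 held 31.1%, 57.3% and 38.6% in HN44 and 36.4%, 28.3% and 41.3% in SN14.

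**Figure D4:**
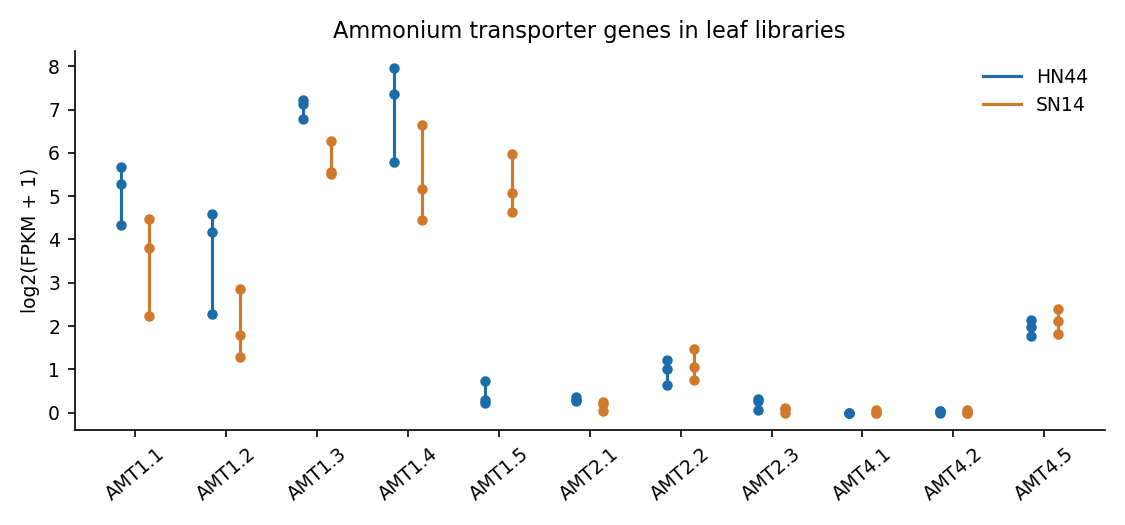
Level of the 11 AMT genes on the log2(FPKM + 1) scale, with 1 point per library and a line from the lowest to the highest library of each genotype. AMT1.5, chosen for its contrast, is the gene whose place changes most. It goes from the low genes in HN44 (0.16 to 0.67 FPKM) to place 3 of 11 in SN14 (24.0 to 61.4 FPKM).

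Inside each genotype, which the choice of the pair did not use, AMT1.3 and AMT1.5 had their highest value in the same library. Both were highest in HN44-1 and lowest in HN44-2, and both were highest in SN14-2. The other SN14 libraries stood in opposite order, with SN14-3 above SN14-1 for AMT1.3 and below it for AMT1.5. AMT1.1, AMT1.2 and AMT1.4 were also highest in HN44-1 and in SN14-2 and lowest in HN44-2 within HN44; SN14-3 was above SN14-1 for AMT1.1 and AMT1.2 and below it for AMT1.4. This pattern was read from the genes themselves, so it is a description with no test. The order HN44-1 over HN44-3 over HN44-2, with SN14-2 highest in SN14, was found in 19.3% of all tested genes (5246 of 27140). All 5 AMT1 genes had that order, as did 7 of 14 tested nitrogen genes. AMT1.4 shares listed bases with both genes of the pair. AMT1.3 varied least, with HN44-1 at 1.35 times HN44-2 and SN14-2 at 1.71 times SN14-1. AMT1.5 was at 4.19 times in HN44-1 over HN44-2, at levels under 1 FPKM, and at 1.89 times in SN14-2 over SN14-1. AMT1.4 was at 4.60 and 2.82 times, AMT1.2 at 6.03 and 4.31 times and AMT1.1 at 2.62 and 5.78 times.

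The genes around the pair were compared next, as the 5 nearest on each side of each gene. Of 12 neighbours, 9 were tested and none passed in limma, where 3.78% of all tested genes did. An unadjusted limma p under 0.05 was found for 1, LOC100798815, and for 27.3% of all tested genes. The median log2 difference of the 9 was 0.08, beside 0.17 over all tested genes. None passed without HN44-3 (lowest limma adjusted p = 0.282), where 0.553% of all tested genes did. Before AMT1.3 lie BGI_novel_G001429, at 1.61 to 2.39 FPKM in HN44 and 2.02 to 3.90 in SN14, and LOC100796154, at 2.48 to 3.76 and 1.06 to 3.03 FPKM. After AMT1.5 lie LOC102664931, at or below 0.41 FPKM in each library and not tested, and LOC100802355, at 1.36 to 1.90 FPKM in HN44 and 1.29 to 2.09 in SN14. EIN4, which in Arabidopsis names an ethylene receptor, was the farthest neighbour before the pair and stood at 6.34 to 8.68 FPKM in HN44 and 5.91 to 12.3 in SN14. Outside the 4 models listed over the same bases, the neighbours described by the 5-gene rule were thus low in both genotypes, at 12.3 FPKM or less.

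Genes of nitrogen uptake and assimilation were taken from a list of 21 symbols, 14 of which were tested. None passed in limma (lowest adjusted p = 0.104, and 0.350 without HN44-3, both of INR2). The share of all tested genes that passed was 3.78%, and 0.553% without HN44-3. An unadjusted limma p under 0.05 was found for 5 of the 14, each with a higher mean in HN44. The same held for 18.7% of all tested genes. Of the 14, 13 were above 0 and 1 below, with a median log2 difference of 0.54 beside 0.17 for all tested genes, of which 64% were above 0. After median-of-ratios scaling 12 were above 0, and the median was 0.35 beside 0.02.

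The 6 most abundant of the list were described one by one. INR2, for nitrate reductase, stood at 929, 548 and 769.6 FPKM in HN44 and at 507, 392 and 329 in SN14. HN44 lay above SN14 throughout, as in 23.3% of all tested genes (log2 difference 0.86 ± 0.26 SE, limma adjusted p = 0.104). NIR, for nitrite reductase, the next step towards ammonium, stood at 17.0, 88.8 and 46.3 FPKM in HN44 and at 109, 71.2 and 72.6 in SN14. Its groups overlapped, and its mean was lower in HN44 (-0.98 ± 0.55 SE, limma adjusted p = 0.287); the difference was -0.36 without HN44-1 and -1.52 without HN44-2.

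LOC548082, with the synonym GS1beta1 and thus a glutamine synthetase gene, stood at 279, 112 and 212 FPKM in HN44 and at 86.5, 168 and 67.9 in SN14. It had the library order found in 19.3% of all tested genes, highest in HN44-1 and in SN14-2. Its groups overlapped (0.91 ± 0.44 SE, limma adjusted p = 0.232). NRT1-3, a nitrate transporter gene by its symbol, stood at 204, 74.9 and 149.7 FPKM in HN44 and at 43.6, 83.4 and 57.9 in SN14, with overlap between HN44-2 and SN14-2 (1.13 ± 0.40 SE, limma adjusted p = 0.137).

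AAH and AAH2, for allantoate amidohydrolase, which releases ammonium in ureide breakdown, had nearly equal levels. AAH stood between 94.0 and 120.1 FPKM in HN44 and between 65.7 and 91.4 in SN14 (0.52 ± 0.19 SE, limma adjusted p = 0.151). AAH2 stood between 91.5 and 99.98 FPKM in HN44 and between 57.4 and 81.9 in SN14 (0.56 ± 0.19 SE, limma adjusted p = 0.128). Neither overlapped between the genotypes, and neither passed. All 3 HN44 libraries lay above the 3 SN14 libraries in 23.3% of all tested genes.

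**Figure D5:**
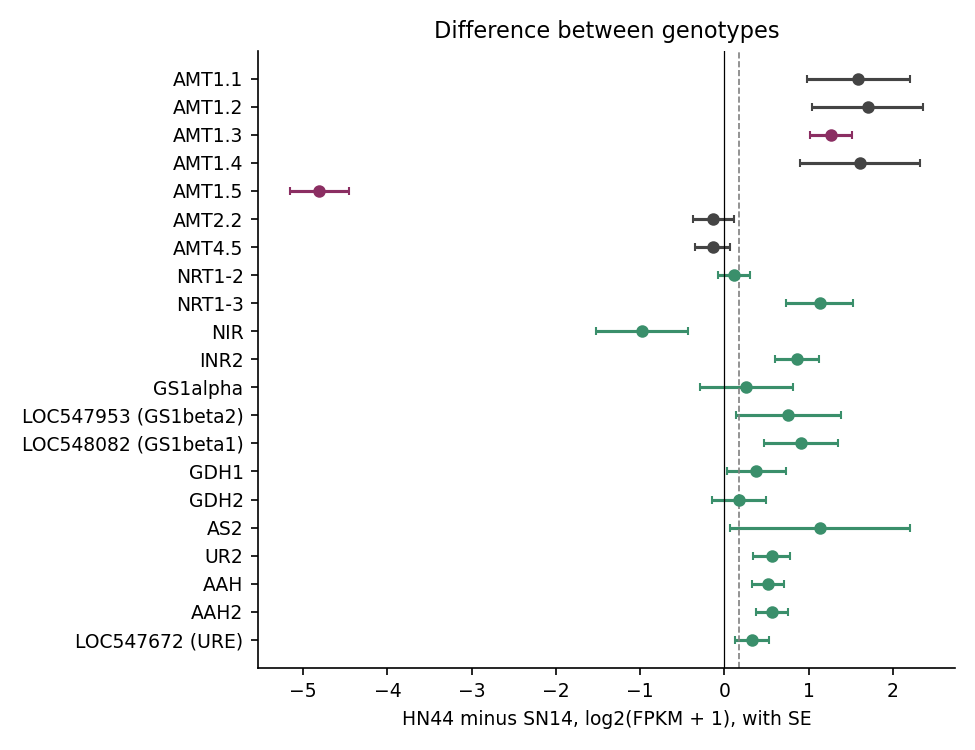
HN44 minus SN14 on the log2(FPKM + 1) scale with its SE, for the tested AMT genes (pair in purple, others in dark grey) and nitrogen genes (green); the dashed line is the median of all tested genes, 0.17. AMT1.5 at -4.81 lies apart on the side of SN14, and AMT1.3 at 1.27 lies among AMT1.1, AMT1.2 and AMT1.4.

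The genes with the highest Pearson correlation with each of the pair were taken over the 6 libraries, on log2(FPKM + 1). They came from 17204 genes whose mean reached 5 FPKM in 1 genotype or both. These correlations are a description: the points share libraries, and HN44-3 may not be a separate sample. Each r also includes the difference between genotypes that chose the pair. A high r thus need not mean that a gene followed the member within a genotype. For AMT1.3 the 8 closest had r from 0.9957 to 0.9978. They were LOC100786585, LOC100795624, LOC100787929, LOC100780806, LOC100790090, LOC100776888, SFERH-3 and LOC100788852. SFERH-3, a gene of the iron storage protein ferritin, stood at 289, 249 and 278 FPKM in HN44 and at 123, 193 and 131 in SN14. LOC100780806 stood at 232, 151 and 187 FPKM in HN44 and at 38.0, 85.5 and 44.7 in SN14. Both have the high SN14-2 value that AMT1.3 has, and the library order found in 19.3% of all tested genes.

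For AMT1.5 the 8 closest had r from 0.9888 to 0.9933. They were LOC100806548, LOC100811840, LOC100797094, LOC100499757, LOC100795891, GSTU28, LOC100801732 and LOC100803727. GSTU28, a glutathione S-transferase gene, stood at 3.08, 2.85 and 3.71 FPKM in HN44 and at 23.3, 24.7 and 19.7 in SN14. LOC100795891 stood at 1.58, 1.38 and 1.60 FPKM in HN44 and at 7.24, 6.92 and 5.60 in SN14. A correlation takes no account of size: LOC100797094 stood at 24.5 to 25.4 FPKM in HN44 and 28.8 to 29.9 in SN14, a ratio of 1.18, beside 94.7 for AMT1.5. None of the 8 genes lies in the family. AMT1.3 and AMT1.5 had r = -0.84 with each other, a sign that their choice sets. With LOC100798815, whose listed span covers it, AMT1.3 had r = 0.98, number 200 among the 17204 genes. With AMT1.4, whose span covers it too, r was 0.879. With AMT1.1 and AMT1.2, which lie outside these spans, r was 0.888 and 0.893.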

How the data were processed

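Leaf RNA was sequenced in 3 libraries each of HN44 and SN14. Per the file headers, the authors deposited 1 table of FPKM values per gene, to 2 decimals, with each gene's position. Tools named in the submitters' processing notes, with no role for any, are RSEM 1.2.12, DESeq2 1.4.5, Bowtie2 2.2.5 and HISAT2 2.0.4. Read totals were not used here, so depth and counting error are unknown. Symbols and chromosome numbers came from a RefSeq table of Glycine_max_v4.0, which matched 37544 of 41759 genes.

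A gene was tested if 3 or more libraries reached 1 FPKM, which left 27140 genes. The test was limma 3.58.1 (R 4.3.3) with a variance trend on log2(FPKM + 1), HN44 against SN14, all 6 libraries, no covariate, Benjamini-Hochberg adjustment, threshold 0.05; this scale understates changes of low genes. The fit was also run on simulated data drawn as independent libraries, which cannot show how it performs if HN44-3 is not a separate sample. The members and lists were chosen with earlier results of these data known. The family was taken by symbol, as protein sequences were not used here. Named were all AMT genes, the 6 most abundant nitrogen genes and any called, the 2 nearest genes on each side (EIN4 and the genes singled out among the 8 closest in pattern were picked after their values were seen), and the 8 genes closest to each of the pair in pattern. Other pseudocounts, filters, scalings, a fit without trend, a replicate block and leaving out each library were tried.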

Additional observations from a re-analysis of the deposited data

How the results depend on the processing

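AMT1.3 stayed higher and AMT1.5 lower in HN44 under each alternative run. The log2 difference of AMT1.3 ranged from 1.08 (median-of-ratios scaling) to 1.51 (without SN14-2). That of AMT1.5 ranged from -5.10 to -4.44 when a library was left out, and was -5.49 with a pseudocount of 0.5 and -6.51 with 0.1, as its HN44 values lie under 1 FPKM. Genes past the threshold numbered 1025, and 150 to 961 when a library was left out: 150 without HN44-3, 276 without HN44-1 and 478 without SN14-3. With the filter applied again without HN44-3, a choice made after seeing the data, 15 passed. With the replicate number as a block 174 passed. The deviations of same-numbered libraries had correlations of -0.223, -0.436 and 0.03. Being taken from means of 3 libraries, the deviations depend on each other, so these values cannot decide whether same-numbered libraries are paired. No other AMT gene and no nitrogen gene passed under any of these alternatives; of the neighbours 0 to 1 passed when a library was left out, LOC100798815 without SN14-2. Of 220 refits of 15 named genes, 215 kept direction and call. The 4 that changed sign were LOC100802355 (-0.04 after median-of-ratios scaling), AMT2.2 (0.02 without HN44-2 and 0.05 without SN14-2; range -0.30 to 0.05 when a library was left out) and AMT4.5 (0.00 without SN14-3; range -0.29 to 0.00), all near 0; the cause was not tested. Unknown depth limits what the HN44 values of AMT1.5 can show.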
